A study of Mus musculus with 8 samples.

Results

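De novo lipogenesis is the route by which cells build fatty acids from carbohydrate carbon, and it is described here through 10 genes in the fat pad beside the epididymis of male mice (epididymal white adipose tissue). The genes were chosen by symbol: Acly, Acaca, Acacb, Fasn, Scd1, Scd2 and Me1 encode enzymes, Srebf1 and Mlxipl encode transcription factors, and Thrsp encodes a small regulatory protein. All 10 were found among the 24821 genes of the deposited table, and all 10 passed the filter on low values. There were 4 libraries each of Ccdc92 knockout (KO) and wild type (WT) males of a C57BL/6 background. For 14 weeks all had eaten a high-fat diet (fat 60%, carbohydrate 20% and protein 20% of energy), so none of the groups is chow-fed. WT animals were littermates of matched age. The sources used here do not give the allele, the age at the start of the diet or the feeding state at collection. No label says that each library came from its own animal, and the tests rest on the spread between libraries, which could be technical.

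In the cytosol, ATP citrate lyase (Acly) splits citrate into acetyl-CoA, acetyl-CoA carboxylase (Acaca, and at the mitochondrial surface Acacb) makes malonyl-CoA, and fatty acid synthase (Fasn) joins malonyl units into palmitate. Malic enzyme (Me1) supplies NADPH, and the stearoyl-CoA desaturases (Scd1, Scd2) put a double bond into saturated acyl chains. Transcription of these genes is known to be driven by SREBP-1, the insulin-responsive factor encoded by Srebf1, and by ChREBP, the carbohydrate-responsive factor encoded by Mlxipl. In white fat the pathway is known to be high in lean, insulin-sensitive animals and to be held down by high-fat feeding.

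RefSeq start sites on GRCm38.p6 were matched for 8 of the 10 genes, with 12 start sites in all, and Scd1 and Scd2 were not among them. Each sequence below is the stretch of 250 bases before a start site, 5′ to 3′ on the gene's strand. Fasn and Thrsp are shown because they rose in KO, Acly because it did not, and the upstream and downstream start sites of Mlxipl because the deposited value of that gene is a sum over both. Capitals mark matches on either strand to CCAAT (the NF-Y motif), GGGCGG (the GC box), CACGTG (an E-box) or TCACNCCAC (a sterol regulatory element).
Fasn, chr11:120824548-120824797, minus strand: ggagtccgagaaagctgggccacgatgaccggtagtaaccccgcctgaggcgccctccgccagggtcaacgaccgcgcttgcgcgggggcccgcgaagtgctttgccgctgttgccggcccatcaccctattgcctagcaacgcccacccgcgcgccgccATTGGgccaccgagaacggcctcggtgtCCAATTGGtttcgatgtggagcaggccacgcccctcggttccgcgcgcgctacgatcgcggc
Thrsp, chr7:97417551-97417800, minus strand: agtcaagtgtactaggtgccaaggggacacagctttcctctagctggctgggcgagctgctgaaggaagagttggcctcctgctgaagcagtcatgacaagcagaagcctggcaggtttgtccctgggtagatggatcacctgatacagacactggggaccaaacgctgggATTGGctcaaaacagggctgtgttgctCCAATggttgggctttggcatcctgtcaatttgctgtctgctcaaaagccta
Acly, chr11:100528001-100528250, minus strand: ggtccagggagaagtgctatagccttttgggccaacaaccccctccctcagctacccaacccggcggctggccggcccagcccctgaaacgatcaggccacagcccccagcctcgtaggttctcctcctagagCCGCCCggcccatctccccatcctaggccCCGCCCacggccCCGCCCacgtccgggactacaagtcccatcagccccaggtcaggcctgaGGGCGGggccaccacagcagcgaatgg
Mlxipl upstream start, chr5:135089640-135089889, plus strand: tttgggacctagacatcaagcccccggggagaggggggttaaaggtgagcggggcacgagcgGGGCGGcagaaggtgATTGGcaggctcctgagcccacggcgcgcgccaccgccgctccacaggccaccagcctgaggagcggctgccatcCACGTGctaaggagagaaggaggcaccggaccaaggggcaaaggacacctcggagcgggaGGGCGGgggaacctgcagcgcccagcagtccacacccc
Mlxipl downstream start, chr5:135106641-135106890, plus strand: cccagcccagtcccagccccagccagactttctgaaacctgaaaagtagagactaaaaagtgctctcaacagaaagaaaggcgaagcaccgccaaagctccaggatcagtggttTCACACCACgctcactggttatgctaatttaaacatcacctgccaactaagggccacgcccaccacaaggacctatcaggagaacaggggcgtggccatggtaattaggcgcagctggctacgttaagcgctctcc
Fasn held CCAAT at 3 places, whose first bases lie 90, 62 and 59 bases before the start. The latter 2 run into each other on opposite strands. Thrsp held it at 79 and 52 bases. Acly held the GC box at 4 places and no CCAAT. The E-box of the upstream Mlxipl start lies 98 bases before it, and the sterol element of the downstream one 136 bases before it. Of the 12 start sites, 7 held CCAAT, 5 the GC box, 1 the E-box and 1 the sterol element. Over all 32851 RefSeq start sites, 33.8%, 32.7%, 6.02% and 1.05% of stretches of this length held them. Matches at these sites did not divide the genes by response: Acaca, which rose, held none of the 4 motifs at its 1 matched start site, and Me1, which did not pass, held CCAAT at 1 start site and the GC box at the other. The Acaca stretch (chr11:84195188-84195437) lies inside the annotated gene, which begins at 84129672. The Acacb stretch (chr5:114165268-114165517) also lies inside its gene, which begins at 114146535. Bases before those annotated beginnings were not searched. Both CCAAT matches of Thrsp lie inside its annotated gene as well, which begins at 97417730 on the minus strand. Downstream start sites of Mlxipl, Me1 and Srebf1 likewise lie inside their genes. These matches describe letters only and show no binding.

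Coordinates are those of GENCODE M21 genes on GRCm38. Libraries held 23681088 to 33817478 reads assigned to genes. The targeted gene Ccdc92 (ENSMUSG00000037979.13, chr5:124834418-124862424) had 59, 71, 114 and 106 reads in WT replicates 1 to 4 and 8, 6, 9 and 4 in KO, and fell by 3.34 on the log2 scale (SE 0.33; limma adjusted p = 0.000383). Adiponectin (Adipoq), which defines adipocytes, was abundant in every library, at normalized counts of 12578 to 92421. WT replicate 3 stood apart in liver transcripts: the summed level of 7 hepatocyte markers was 54901 there, 110.1 to 225 in the other WT libraries and 560.3 to 1548 in KO. KO replicate 3 stood apart in hemoglobin transcripts, which took 18.0% of its reads against 0.233% to 1.75% in the other 7 libraries. All WT libraries also held epididymal transcripts, with Crisp1 at 26575 to 71825 against 0 to 37.6 in KO.

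In KO fat, 7 of the 10 lipogenesis genes rose and none fell, at a Benjamini-Hochberg adjusted p under 0.05 in limma. Thrsp, Scd1, Acacb, Acaca, Fasn, Mlxipl and Srebf1 rose, whereas Me1, Acly and Scd2 did not pass. Of all 17798 genes tested, 41.7% were called, 20.2% as higher and 21.5% as lower. For the same 7 genes the WT and KO libraries did not overlap, against 42.1% of all genes, 21.0% with KO above WT and 21.1% with KO below. A called rise of at least 2-fold was seen for 6 of the 10 genes and for 6.43% of all genes. The median log2 fold change was 1.19 over the 10 genes and -0.01 over all genes tested. Fold changes are KO over WT on log2(normalized count + 1). Without WT replicate 3 alone or KO replicate 3 alone, all 7 still passed. Without both WT replicate 3 and KO replicate 3, a comparison chosen after seeing the data, 5 of the 10 passed, and Fasn (1.21, limma adjusted p = 0.0581) and Acacb (1.90, limma adjusted p = 0.0651) did not. That comparison called 3890 genes of the whole table in place of 7423.

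**Figure D1:**
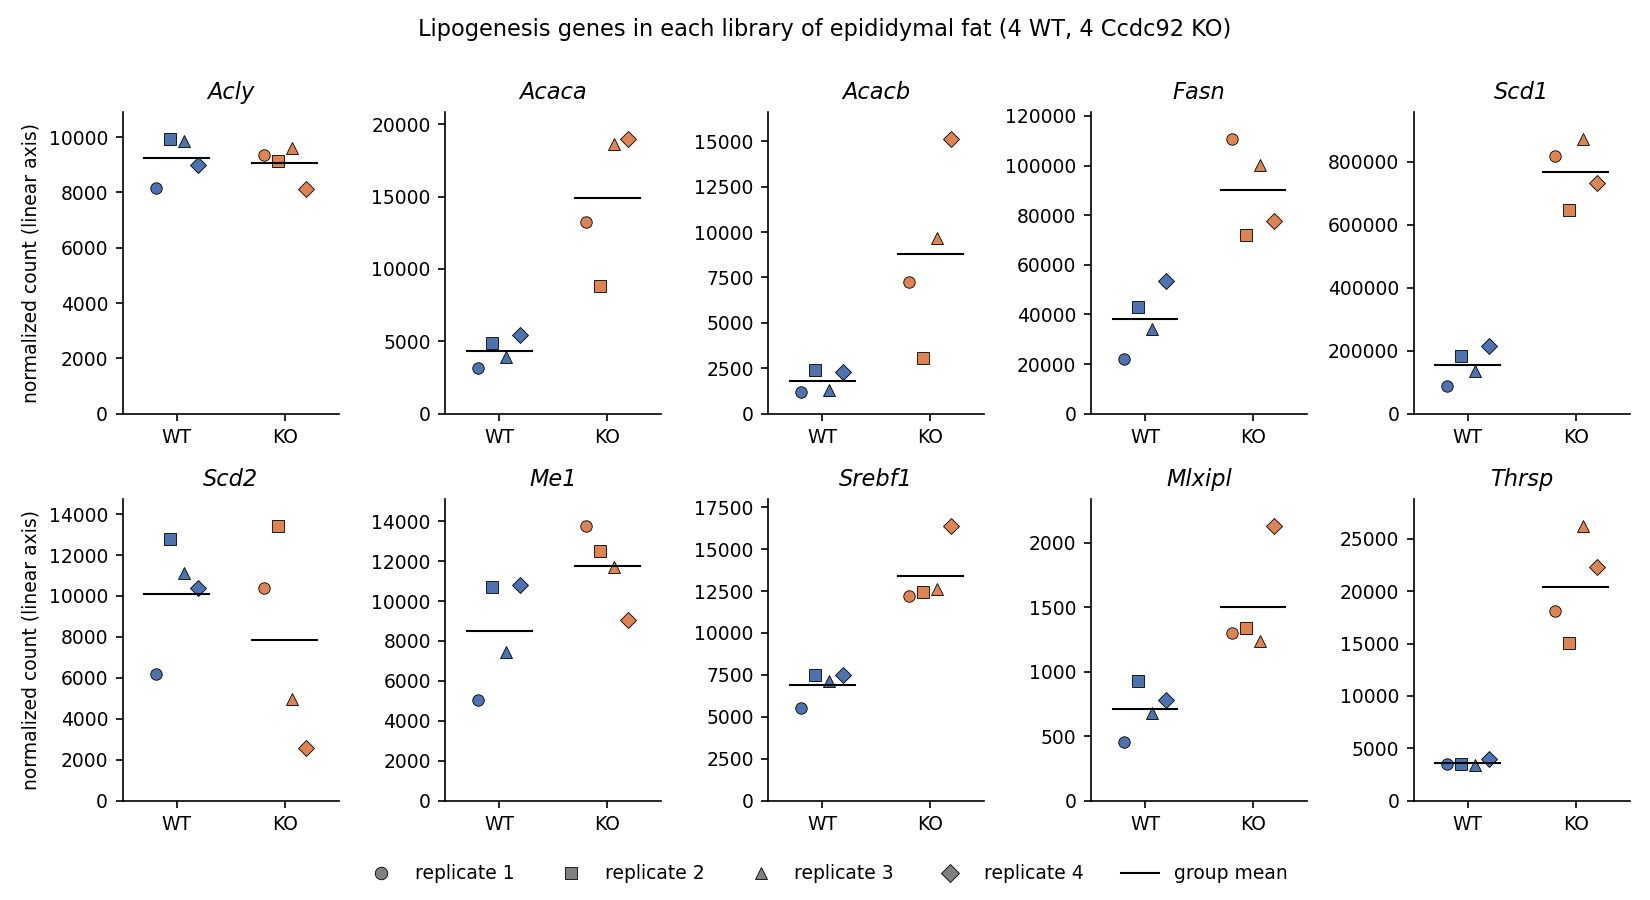
Normalized count (linear vertical axes, each from 0) of the 10 lipogenesis genes in 4 WT and 4 KO libraries of epididymal fat, 1 point per library with its replicate number as symbol and a line at the group mean. For Acaca, Acacb, Fasn, Scd1, Srebf1, Mlxipl and Thrsp every KO point lies above every WT point, while Acly, Scd2 and Me1 overlap.

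Acly (ENSMUSG00000020917.17, chr11:100476353-100528000), which releases acetyl-CoA from citrate, had the log2 fold change closest to 0 of the 10 genes. Its normalized counts were 8146, 9933, 9853 and 8995 in WT replicates 1 to 4 and 9349, 9136, 9621 and 8139 in KO replicates 1 to 4. The groups lay on top of each other, at 9232 ± 839 and 9061 ± 646 (SD, n = 4). The log2 fold change was -0.03 (95% interval -0.25 to 0.20, limma adjusted p = 0.857), an interval that leaves out changes above 1.15-fold upward and 1.19-fold downward.

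The carboxylases rose together. Acaca (ENSMUSG00000020532.18, chr11:84129672-84401651), the cytosolic form that feeds fatty acid synthase, had normalized counts of 3133, 4918, 3936 and 5446 in WT and 13236, 8834, 18661 and 18988 in KO. All KO libraries exceeded all WT libraries, and the fitted change was 3.35-fold (95% interval 2.17 to 5.15, limma adjusted p = 0.00183). Acacb (ENSMUSG00000042010.16, chr5:114146535-114250761), the form at the mitochondrial surface whose malonyl-CoA restrains fatty acid entry for oxidation, had 1170, 2427, 1301 and 2276 in WT and 7243, 3058, 9654 and 15125 in KO. KO replicate 4 was the highest, and KO replicate 2 exceeded the highest WT library by little. The change of Acacb was 4.43-fold (95% interval 2.10 to 9.34, limma adjusted p = 0.00769), with a coefficient of variation of 57.4% among KO libraries. The ratio of Acacb to Acaca lay between 0.331 and 0.494 in WT libraries and between 0.346 and 0.797 in KO libraries. Its log2 value differed by 0.40 between groups, which did not pass an exact two-sided permutation test over the 70 splits (p = 0.2, adjusted over 6 ratios 0.24). No stretch of 50 bases is shared between annotated transcripts of these paralogs. Acacb lies 10.6 Mb from Ccdc92 on chromosome 5, on the opposite side from Mlxipl at 10.2 Mb.

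Fatty acid synthase rose less than the carboxylases in fitted fold, with intervals that overlap theirs, and that difference was not tested. Fasn (ENSMUSG00000025153.9, chr11:120805846-120824547) had normalized counts of 22065, 42794, 34319 and 53272 in WT and 110701, 72167, 100245 and 77692 in KO. WT replicate 1 was the lowest library, and KO replicate 2, the lowest of its group, lay above WT replicate 4, the highest of WT. The change was 2.45-fold (95% interval 1.58 to 3.79, limma adjusted p = 0.00662). Since Fasn rose and Acly did not, their ratio moved from 2.71 to 5.92 in WT to 7.90 to 11.8 in KO, a log2 difference of 1.32 (exact permutation p = 0.0286, adjusted 0.0429). With Acly nearly level, this ratio largely repeats the change of Fasn.

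The 2 desaturases parted. Scd1 (ENSMUSG00000037071.3, chr19:44394455-44407879), the main desaturase of adipocytes, had normalized counts of 89129, 182146, 135618 and 216281 in WT and 817953, 647468, 871662 and 731285 in KO. The groups were far apart, and the KO libraries varied less, with a coefficient of variation of 12.8% against 35.6% in WT. The change was 5.16-fold (95% interval 3.31 to 8.04, limma adjusted p = 0.000655). Under quantile normalization, which sets values by rank, this call was lost (log2 fold change 0.77, limma adjusted p = 0.231). Scd1 ranked between 1 and 19 by reads in every library, and it was the most abundant gene in WT replicate 4 and in KO replicates 1, 2 and 4. Scd2 (ENSMUSG00000025203.6, chr19:44293674-44306864), its neighbour on chromosome 19, had 6188, 12767, 11128 and 10366 in WT and 10371, 13421, 4969 and 2550 in KO. KO replicate 2 held the highest and KO replicate 4 the lowest value of all 8 libraries. The log2 fold change of -0.59 did not pass (95% interval -1.73 to 0.55, limma adjusted p = 0.367).

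The ratio of Scd1 to Scd2 was 14.4, 14.3, 12.2 and 20.9 in WT and 78.9, 48.2, 175.4 and 286.7 in KO. Every KO ratio exceeded every WT ratio, and the log2 difference was 2.96 (exact permutation p = 0.0286, the smallest that 70 splits allow, adjusted 0.0429). Of the 50-base stretches of the Scd1 transcripts, 2.97% also occur in Scd2 and 3.42% in Scd3, so a read of that length from those stretches would match both genes. Scd3 and Scd4, minor members of this cluster named after their values were seen, averaged 196.1 and 17.6 in KO and did not pass. Within KO, replicates 2, 1, 3 and 4 ran from the highest to the lowest Scd2 and from the lowest to the highest Acacb and Acaca. The mean log2 level of 12 macrophage markers also ran in the order 2, 1, 3 and 4, at 11.80, 11.59, 11.19 and 11.06. That of 18 adipocyte markers ran in the reverse order, at 15.81, 15.85, 16.10 and 16.15 in KO replicates 2, 1, 3 and 4. Single markers could differ from that mean: Lep, 1 of the 18 and picked after its values were seen, fell in the order of Scd2. Its normalized counts were 80833, 49574, 22231 and 15452 in KO replicates 2, 1, 3 and 4. In WT, replicate 1 had the highest macrophage mean (13.88) and the lowest Scd2. The part of macrophages or of adipocytes in Scd2 was not tested.

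Me1 (ENSMUSG00000032418.15, chr9:86581371-86695953), the NADPH-producing malic enzyme, had normalized counts of 5067, 10682, 7472 and 10801 in WT and 13761, 12513, 11684 and 9074 in KO. KO replicate 4 lay within the WT range. The change of 1.43-fold did not pass (95% interval 0.958 to 2.13, limma adjusted p = 0.133), except with library weights (log2 fold change 0.69, limma adjusted p = 0.0123).

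Among the regulators, Srebf1 (ENSMUSG00000020538.15, chr11:60199089-60222581) had normalized counts of 5522, 7515, 7119 and 7514 in WT and 12192, 12446, 12638 and 16379 in KO. Of the KO values, 3 were close together and replicate 4 was the highest. The change was 1.94-fold (95% interval 1.55 to 2.42, limma adjusted p = 0.00137). Srebf2, the paralog that drives cholesterol synthesis genes, went the opposite way, from 2735 to 3448 in WT to 1435 to 1823 in KO (log2 fold change -0.82, limma adjusted p = 0.000865). The ratio of Srebf1 to Srebf2 rose from 1.60 to 2.75 in WT to 6.83 to 9.24 in KO, a log2 difference of 1.77 (exact permutation p = 0.0286, adjusted 0.0429). Every KO library lay above all WT libraries for Srebf1 and below them for Srebf2. The smallest possible p of this ratio was therefore fixed, and it adds no evidence beyond the changes of the single genes. Mlxipl (ENSMUSG00000005373.13, chr5:135089890-135138382) had 457.7, 931.9, 680.4 and 782.8 in WT and 1300, 1342, 1242 and 2132 in KO. Replicate 4 was again the highest KO library. It changed 2.12-fold (95% interval 1.44 to 3.13, limma adjusted p = 0.00858). The ratio of Mlxipl to Srebf1 differed by 0.13 in log2 value, which did not pass (exact permutation p = 0.371, adjusted 0.371). Isoforms of Srebf1 and of Mlxipl that start at different first exons are known to differ in activity, and gene-level values cannot tell them apart.

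Thrsp (ENSMUSG00000035686.8, chr7:97412938-97417730), also called Spot 14, promotes lipogenesis in response to thyroid hormone and carbohydrate. Its normalized counts were 3542, 3508, 3419 and 4009 in WT and 18129, 15107, 26243 and 22310 in KO. The WT libraries were nearly level, with a coefficient of variation of 7.32%, and every KO library was far above them. The change was 5.54-fold (95% interval 4.26 to 7.20, limma adjusted p = 0.000146). Mid1ip1, its paralog, which promotes polymerization of acetyl-CoA carboxylase, fell from 1971 ± 400 to 1032 ± 76.3 (SD, n = 4; log2 fold change -0.91, limma adjusted p = 0.00174). An antisense gene overlaps 25.5% of the exon bases of Mid1ip1, and without strand its reads cannot be told apart. That antisense gene was not among the genes of the deposited table. The ratio of Thrsp to Mid1ip1 lay between 1.43 and 2.59 in WT libraries and between 14.1 and 27.6 in KO libraries, a log2 difference of 3.38 (exact permutation p = 0.0286, adjusted 0.0429). Here too the groups were already separate for each gene, in opposite directions. The p of this ratio was thus fixed and adds no evidence beyond the changes of the single genes.

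**Figure D2:**
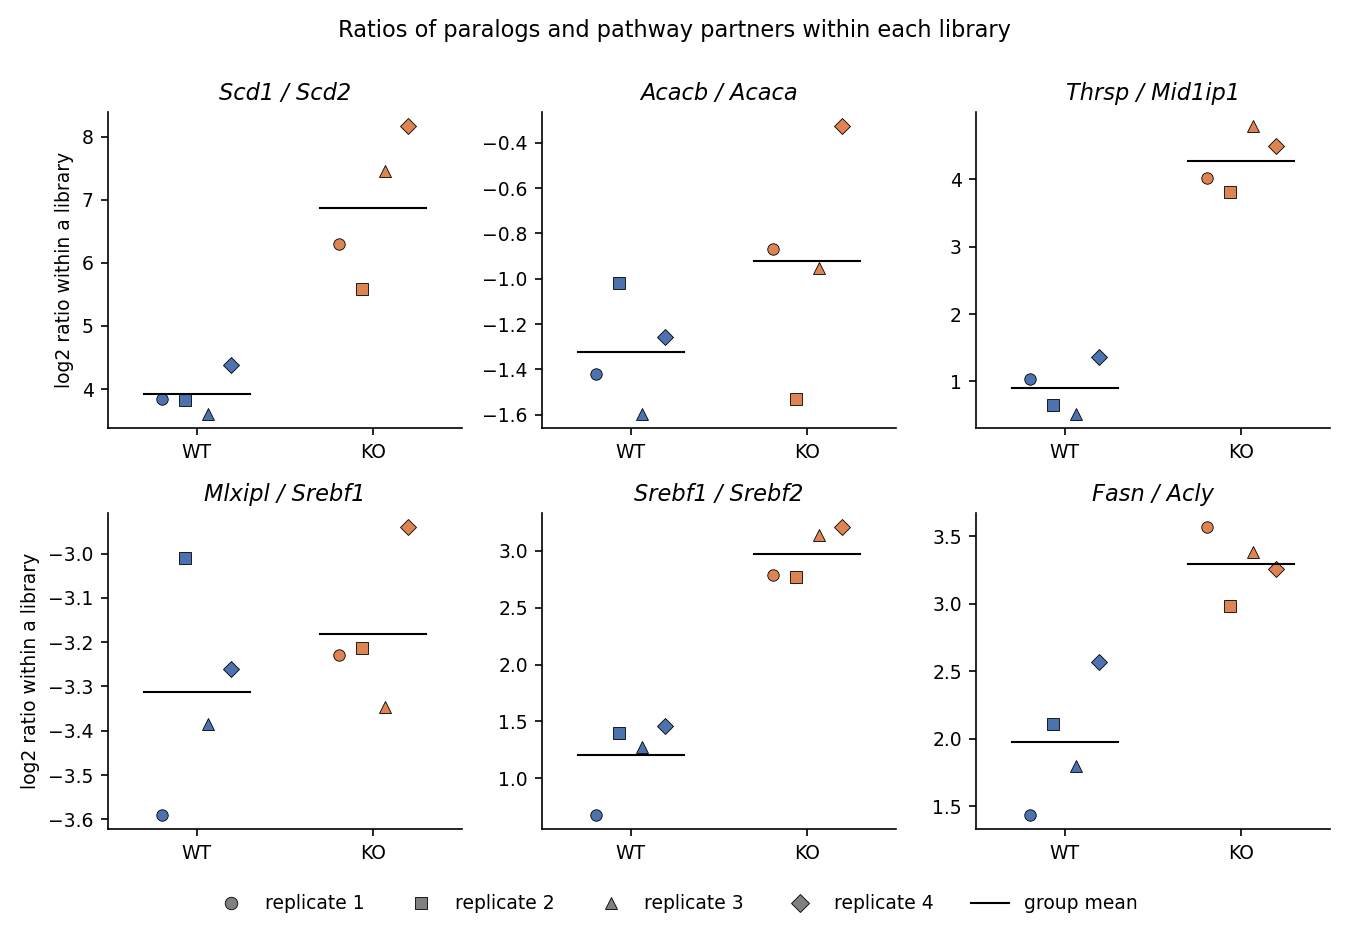
Log2 ratio of normalized counts of 2 genes within each library (vertical axes, not from 0), for 6 pairs of paralogs or pathway partners in 4 WT and 4 KO libraries, with symbols for replicates and a line at the group mean. The groups are separate for Scd1 to Scd2, Thrsp to Mid1ip1, Srebf1 to Srebf2 and Fasn to Acly, and overlap for Acacb to Acaca and Mlxipl to Srebf1.

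The 4 ratios that passed kept their direction without any single library, but with 7 libraries left the test passed only when WT replicate 4 or KO replicate 2 was the one removed. Adjusted p values without any 1 of the other 6 libraries were 0.0571 to 0.0857 in the exact permutation test. With 7 libraries only 35 splits remain, and the smallest exact p is again 0.0286. Scd1 to Scd2 left that value without WT replicate 1, 2 or 3, as did Fasn to Acly without KO replicate 1, 3 or 4 (adjusted p 0.0857). The other ratios that had passed stayed at the smallest exact p. Their adjusted p rose to 0.0571 only because fewer ratios shared that value. Removing a library cannot make separate groups overlap, so these lost calls need not mean smaller differences.

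As a share of all reads assigned to genes, the 10 genes took 0.892% ± 0.292 in WT and 3.11% ± 0.365 in KO (SD, n = 4). The lowest library was WT replicate 1 at 0.527% (exact 95% binomial interval 0.524% to 0.529%) and the highest KO replicate 1 at 3.60% (3.60% to 3.61%). These intervals cover counting error only. In KO replicate 3 the 10 genes took 2.93%, in a library where hemoglobin transcripts took 18.0% of reads, which leaves a smaller share for all other genes. Scd1 alone made up 61.7% to 67.6% of the reads of the 10 genes in WT and 80.6% to 81.7% in KO. Without Scd1, the share of the other 9 genes was 0.311% ± 0.082 in WT and 0.587% ± 0.0824 in KO.

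**Figure D3:**
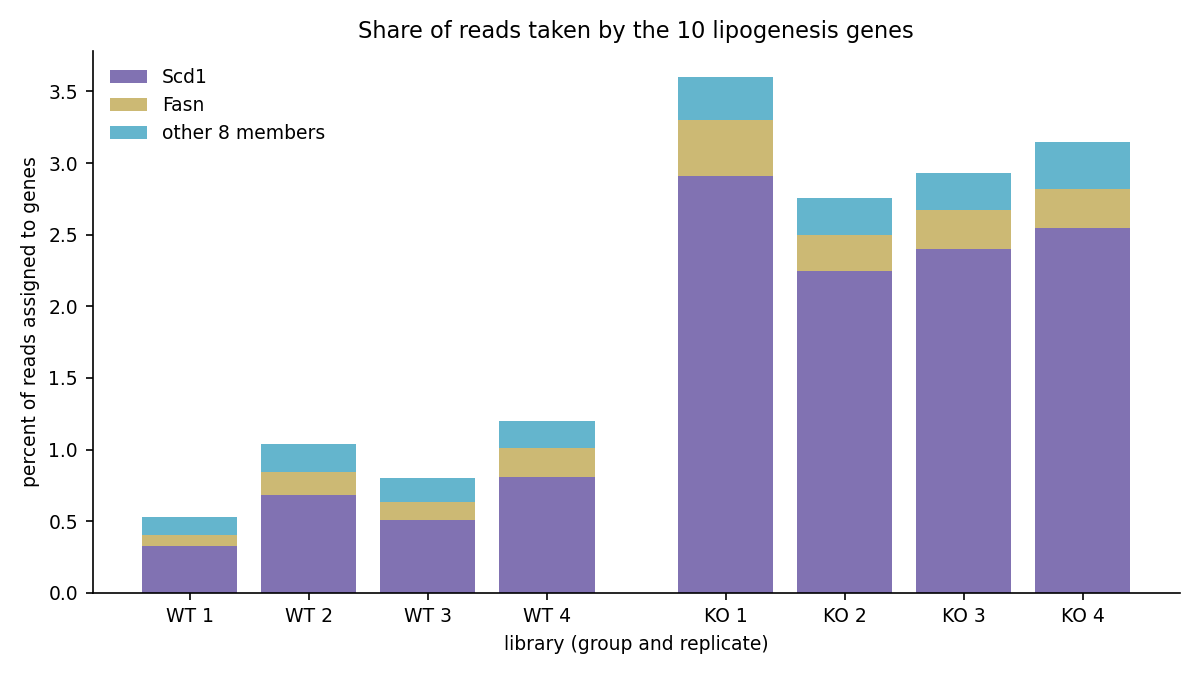
Percent of reads assigned to genes that fell on the 10 lipogenesis genes, 1 bar per library (4 WT, 4 KO), stacked as Scd1, Fasn and the other 8 genes. The bars reach 0.527% to 1.20% in WT and 2.76% to 3.60% in KO, and most of each bar is Scd1.

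Levels of different genes can be set side by side only per length. As the mean normalized count per kilobase of annotated exon in KO, Scd1 led at 156805, followed by Thrsp (9341), Fasn (8240), Me1 (3056), Srebf1 (2381), Acly (1716), Scd2 (1433), Acacb (910.5), Acaca (874.4) and Mlxipl (271.5). In WT the order of means was Scd1 (31847), Fasn (3482), Me1 (2210), Scd2 (1851), Acly (1749), Thrsp (1654), Srebf1 (1228), Acaca (255.2), Acacb (186.2) and Mlxipl (128.8). By this scale Scd1 ranked 38 of the 17798 genes tested in WT and 13 in KO, and Thrsp moved from rank 856 to 119. Neighbours in the WT order whose ranges over libraries overlapped were Fasn and Me1, Me1 and Scd2, Scd2 and Acly, Acly and Thrsp, Acaca and Acacb, and Acacb and Mlxipl. Compared within each WT library, however, Fasn always lay above Me1, Acaca above Acacb, and Acacb above Mlxipl. Neighbours in the KO order whose ranges overlapped were Thrsp and Fasn, Me1 and Srebf1, Acly and Scd2, Scd2 and Acacb, and Acacb and Acaca. None of these KO pairs kept the same order in every library. These orders and ranks depend on the length used. With the longest transcript as the length, Thrsp moved from the sixth to the third place in WT (2585), next to Me1 (2584) and above Acly (2086) and Scd2 (1854). In KO, Acaca (1569) then lay above Scd2 (1435) and Acacb (997.9). Annotated exons of Thrsp add up to 2.19 kb against 1.40 kb for its longest transcript, and those of Acaca to 17.1 kb against 9.51 kb.

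Genes that feed or follow the pathway did not move as one. Of 14 genes that supply carbon or reducing power, 7 rose and none fell (median log2 fold change 0.43). The insulin-regulated glucose transporter Slc2a4 (2.12), pyruvate carboxylase Pcx (1.25) and the pyruvate dehydrogenase subunit Pdha1 (0.78) had the largest changes, each with a limma adjusted p of 0.00475 or less. The cytosolic NADPH sources G6pdx (0.15), Pgd (-0.26) and Idh1 (-0.13) and the citrate carrier Slc25a1 (0.31), picked out after their values were seen, did not pass. Of 11 tested genes of elongation and desaturation, 3 rose and 4 fell (median -0.05). The desaturase of polyunsaturated fatty acids Fads2 had normalized counts of 2268, 3588, 4183 and 4910 in WT against 1672, 961.4, 520.2 and 737.4 in KO. The groups did not overlap, and Fads2 was 4.05-fold lower (95% interval 2.28 to 7.22, limma adjusted p = 0.00334). Fads1, which acts after it, also fell (-0.71), whereas Hacd2 (0.96), Elovl5 (0.31) and Hsd17b12 (0.28) rose. The Hsd17b12 call is weak, since 11 of 21 alternative settings lost it.

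Of 12 genes of SREBP processing and the LXR receptors, 5 rose and 3 fell (median 0.01). Insig2, an anchor that keeps SREBP in the endoplasmic reticulum, rose (0.97), as did the insulin-signalling kinase Akt2 (0.74). Srebf2 (-0.82), the protease Mbtps2 (-0.53) and the SREBP escort Scap (-0.33) fell. Of 10 partners and targets of ChREBP, 2 rose and 2 fell (median -0.03): Pnpla3 (0.99) and Txnip (0.63) rose, and Arrdc4 (-0.56) and the dimerization partner Mlx (-0.33) fell. Pnpla3 lost the call without KO replicate 1, KO replicate 2 or WT replicate 3 (limma adjusted p up to 0.0602), and Txnip without WT replicate 1, WT replicate 3 or KO replicate 3 (up to 0.0596). Of 12 genes that act on acetyl-CoA carboxylase or on its product malonyl-CoA, 6 rose and 2 fell (median 0.33). Mlycd (0.76), the decarboxylase that breaks down malonyl-CoA, and the AMP-activated kinase subunit Prkag2 (0.73) rose, and Mid1ip1 and the subunit Prkab1 (-0.22) fell, Prkab1 with 14 of 21 settings losing the call. Of 9 tested genes of mitochondrial fatty acid synthesis, a separate route that makes lipoic acid precursors, 8 rose and none fell (median 0.74), with Lipt1 (1.00), Mecr (0.92) and Acsf3 (0.88) the largest. Each of these counts stands beside the 20.2% and 21.5% of all genes called higher and lower.

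**Figure D4:**
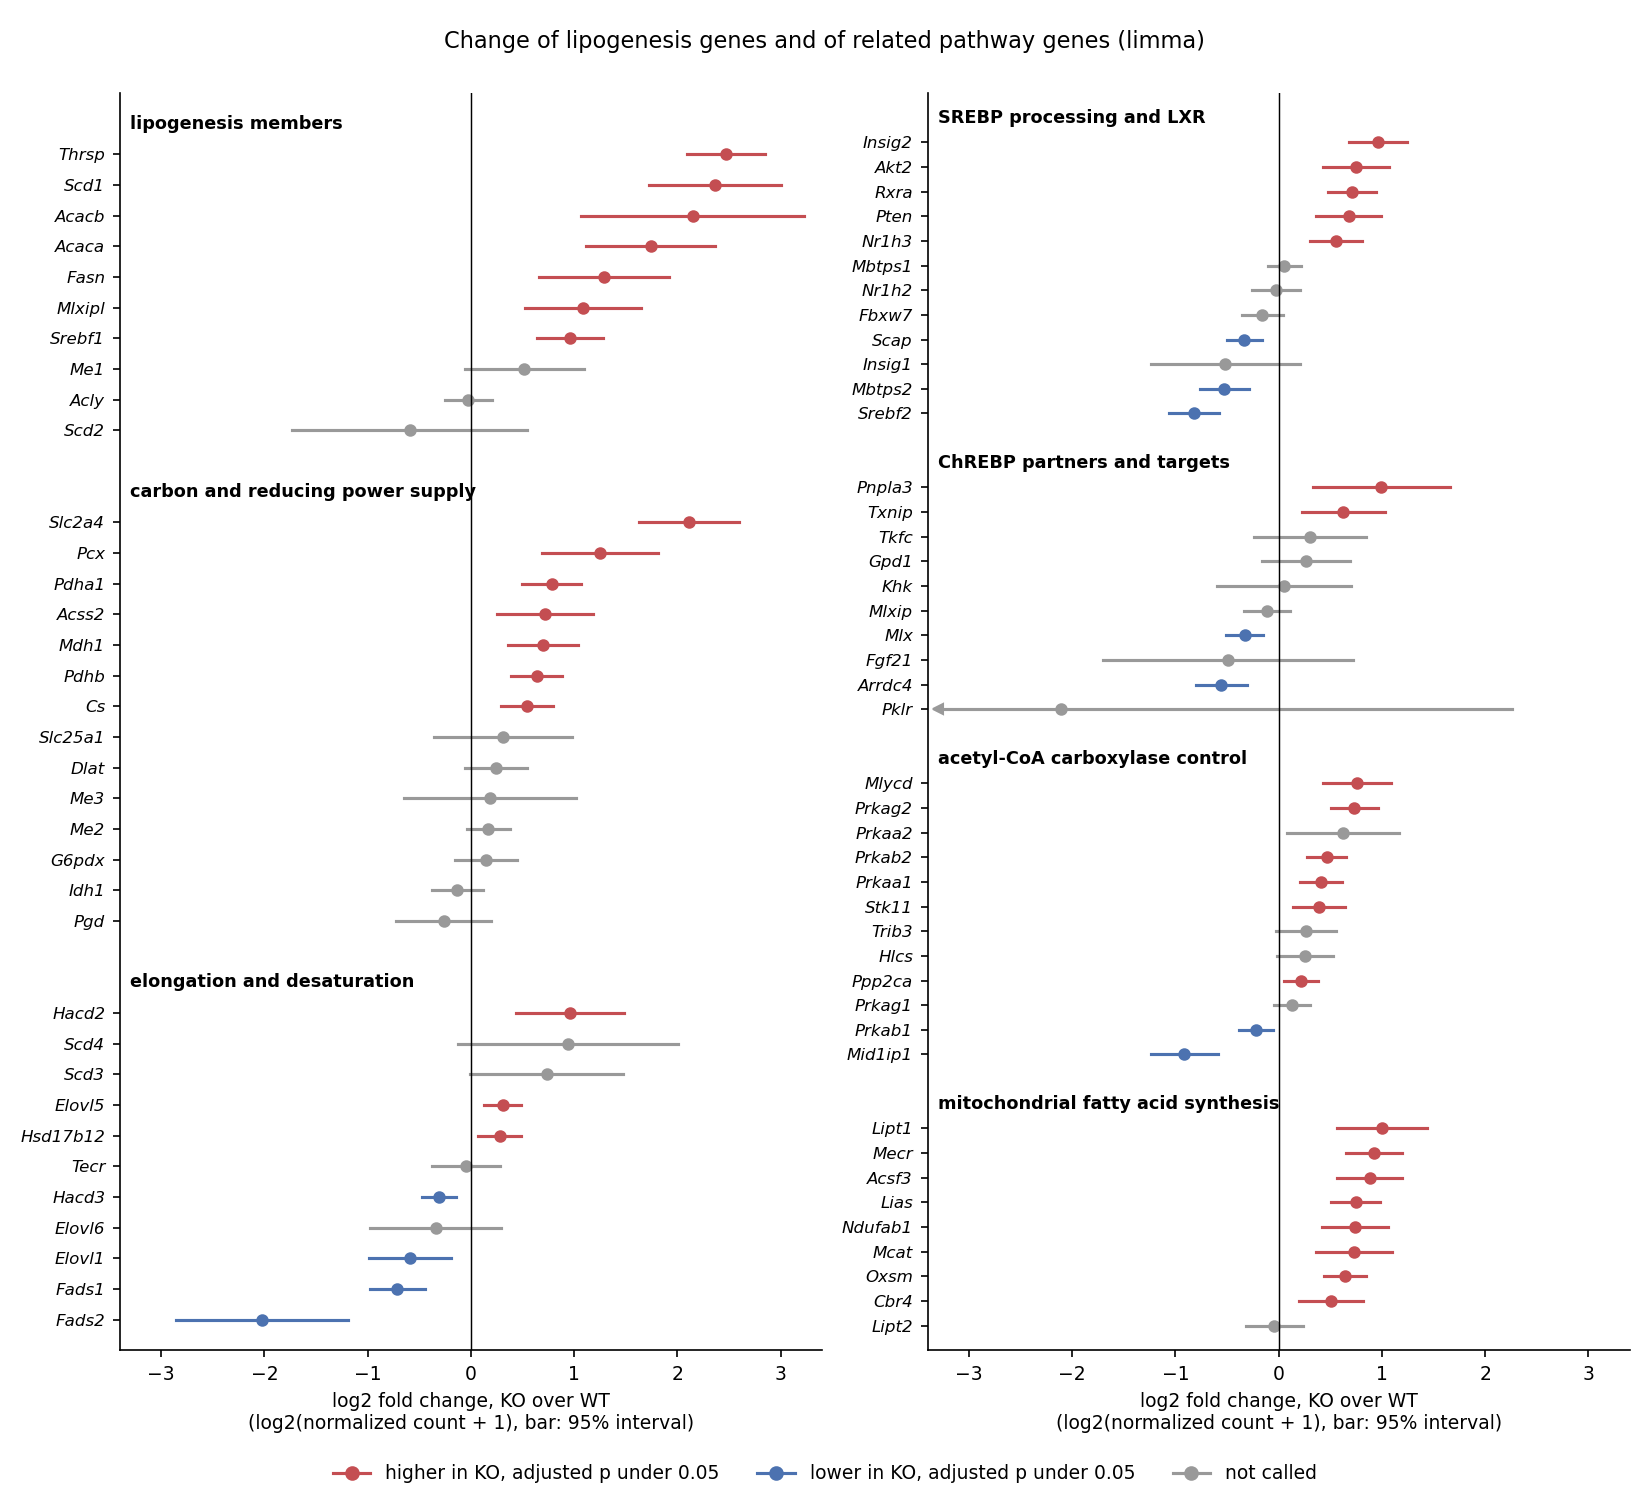
Log2 fold change, KO over WT (horizontal axis, log2(normalized count + 1), n = 4 libraries a group) with its 95% limma interval, for the 10 lipogenesis genes and for tested genes of 6 related lists. Red points passed as higher, blue as lower and grey did not pass; Thrsp (2.47) and Scd1 (2.37) lie at the top, Fads2 (-2.02) is the lowest gene that passed, and the interval of Pklr runs past the left edge.

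Most adipocyte markers rose with the pathway, and macrophage markers fell. Of 18 adipocyte markers, 16 rose (median 1.62), and their mean log2 level ranged over 13.66 to 14.48 in WT libraries and 15.81 to 16.15 in KO libraries. Adipoq rose from 20989 ± 6608 to 79424 ± 11787 (SD, n = 4). All 12 macrophage markers fell (median -1.60), and their summed level was 137412 to 291522 across WT libraries and 46420 to 72750 across KO libraries. Adgre1, a surface antigen of macrophages, ranged over 11613 to 19596 in WT libraries and 1847 to 4625 in KO libraries. No marker of either list was at 0 in any group. In bulk tissue, more adipocytes per sample and more RNA of a gene per adipocyte cannot be told apart. Epididymal transcripts also divided the groups, since the summed level of 8 epididymal markers was 50217 to 112604 in WT libraries and 10.9 to 1148 in KO libraries. This difference coincides with genotype. The part of epididymal tissue in the differences between WT and KO, upward or downward, was not tested. Among WT libraries, replicate 1 had the lowest value for 9 of the 10 lipogenesis genes, Thrsp being the exception, along with the lowest adipocyte mean (13.66) and the highest macrophage mean (13.88).

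Set against the mean log2 of the 18 adipocyte markers in the same library, none of the 10 genes passed at an adjusted p under 0.05 in the exact permutation test over 10 comparisons, where the smallest adjusted p was 0.0571. At an unadjusted p under 0.05, 5 genes were lower relative to the markers in KO with no overlap between groups: Scd2 (-2.46), Acly (-1.89), Me1 (-1.35), Srebf1 (-0.91) and Mlxipl (-0.78), each with an exact p of 0.0286 and an adjusted p of 0.0571. The marker mean itself rose by 1.87 in KO. Log2 fold changes of single markers ran from -0.23 (Lep) to 4.51 (Adrb3), with a median of 1.62. A lower relative value therefore depends on the markers chosen, and Srebf1 (0.96) and Mlxipl (1.08) themselves rose. Thrsp (0.60) and Scd1 (0.50) had the highest relative values, each with an exact p of 0.0571 and an adjusted p of 0.0816, and their groups overlapped. Acaca (-0.13), Acacb (0.28) and Fasn (-0.57) overlapped as well. Under quantile normalization the same 5 genes and Thrsp (0.80) passed, each with an adjusted p of 0.0476, and Scd1 turned to -0.84. Without KO replicate 1 or without KO replicate 2 those 5 genes also passed (adjusted p 0.0476), as did Fasn (-0.72) without KO replicate 1 and Acacb (0.66) without KO replicate 2. Each of these passes rests on an exact p of 0.0286, the smallest possible with 8 or with 7 libraries. The adjusted p then depends only on how many genes reach that value. A further gene reaching it lowered the adjusted p from 0.0571 to 0.0476, which adds no evidence on the 5 genes.

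**Figure D5:**
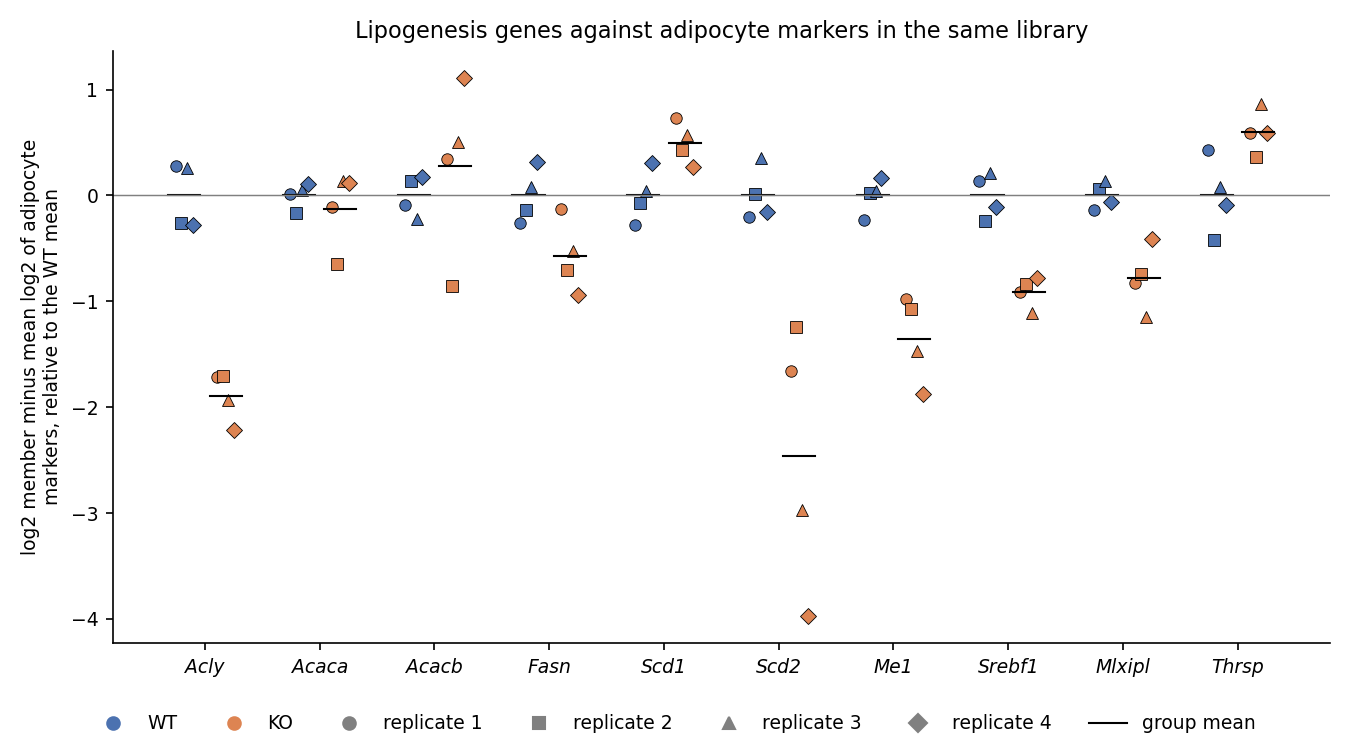
Log2 normalized count of each lipogenesis gene minus the mean log2 of 18 adipocyte markers in the same library, shifted so that the WT mean is 0 (vertical axis), for 4 WT and 4 KO libraries, with a line at each group mean. KO points of Acly, Scd2, Me1, Srebf1 and Mlxipl lie below all WT points, and those of the other 5 genes overlap with WT.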

How the data were processed

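Libraries were made with a TruSeq RNA kit, per the labels' protocols; whether reads were counted by strand is not given in the sources used here. The authors deposited 1 normalized signal per gene and library; per the submitters' processing notes, which give no roles, STAR 2.7.7, DESeq2 and GRCm38.p6 were used. Every deposited value above 0 was a whole multiple of a step per library (100% within 0.01 of a read), so whole reads were recovered. Of 24821 identifiers, 24802 matched GENCODE M21 without version. Genes with a value of at least 10 in at least 4 libraries were fitted with limma 3.58.1 (R 4.3.3) on log2(value + 1), with group alone, trend and robust moderation, and called at an adjusted p under 0.05. On recovered reads, edgeR 4.0.16 called 7435 genes and DESeq2 1.42.0 was also run. The fit was tested on simulated data. Within each group, libraries differed by more than sampling noise (chi-square per degree of freedom 24.7 to 410.2).

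The 10 genes, the lists and the tests were chosen with earlier results of these data known. Named genes were Ccdc92, the 10 genes, the 6 ratio pairs, and per list the 3 largest called changes and every called gene against the majority; others are named as picked after their values were seen, or head a marker list. Lists of fibroblast, endothelial, mesothelial, epididymal, hepatocyte, muscle and brown fat markers gave 0, 3, 0, 0, 0, 0 and 0 higher and 4, 0, 0, 4, 0, 0 and 1 lower genes of 8, 6, 5, 6, 6, 2 and 4 tested. Exon overlaps with other genes covered at most 4.24% of any of the 10 genes.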

Additional observations from a re-analysis of the deposited data

Results flagged for a closer look

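In 3 of the 58 groups of 4 libraries checked, 1 library lay far from the other 3, measured as its gap to the nearest library divided by the whole range of the group. Chance gives this in about 5% of groups. Srebf1 (gap share 0.894) and Mlxipl (0.888) were both highest in KO replicate 4, at normalized counts of 16379 and 2132, while the other KO libraries lay at 12192 to 12638 and 1242 to 1342. Srebf2 (0.854) was lowest in KO replicate 3, at 1435 against 1766 to 1823. KO replicate 4 also had the highest adipocyte marker mean (16.15) and the lowest macrophage marker mean (11.06) of the KO libraries, and KO replicate 3 had the high share of hemoglobin reads (18.0%); the part of either was not tested. Without KO replicate 4, the log2 fold changes were 0.86 for Srebf1 and 0.90 for Mlxipl, and without KO replicate 3 that of Srebf2 was -0.74.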

How the results depend on the processing

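Across 21 alternatives, 7 of the 10 genes passed as higher, except under quantile normalization (6, without Scd1), with library weights (8, with Me1) and without WT replicate 3 and KO replicate 3 (5), the last chosen after seeing the data. The ranges of log2 fold change were -0.08 to 0.03 for Acly, 1.58 to 1.97 for Acaca, 1.81 to 2.58 for Acacb, 1.05 to 1.48 for Fasn, 0.77 to 2.55 for Scd1, -0.94 to -0.14 for Scd2, 0.29 to 0.69 for Me1, 0.85 to 1.02 for Srebf1, 0.89 to 1.23 for Mlxipl and 2.31 to 2.60 for Thrsp. The pair of libraries left out lowered the calls over all genes to 3890 (1724 higher, 2166 lower), with 6 libraries left, and single libraries left out gave 5641 to 7079. Quantile normalization moved the median over all genes by 0.10 and called 4593 genes higher and 3257 lower, in place of 3592 and 3831.

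No label says that replicate numbers pair the samples. Correlations of deviations from the group mean for the same number were low (-0.14, 0.05, -0.04 and 0.17), which cannot show whether animals were paired. With a replicate block, 6266 genes and the same count of 7 lipogenesis genes passed, 1 gene of elongation and desaturation rose, and 1 gene of carboxylase and malonyl-CoA control fell. Paired sign-flip tests of the ratios cannot go below 0.125.

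In the short lists the cause of changed counts was not tested. Without WT replicate 3 and KO replicate 3, elongation and desaturation had 1 higher and 2 lower, ChREBP partners 0 higher and 1 lower, and carboxylase and malonyl-CoA control 3 higher and 1 lower. Without WT replicate 4 and KO replicate 3, ChREBP partners had 1 higher and 1 lower and carboxylase and malonyl-CoA control 1 lower. Quantile normalization left 1 higher ChREBP partner. Carboxylase and malonyl-CoA control had 1 lower gene under TMM factors, edgeR, limma without trend and robust moderation, no filter and quantile normalization. With single libraries left out, higher ChREBP partners and lower carboxylase and malonyl-CoA control genes each numbered 1 to 2.

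With single libraries left out, the log2 ratio differences were 2.53 to 3.39 (Scd1 to Scd2), 3.21 to 3.54 (Thrsp to Mid1ip1), 1.60 to 1.86 (Srebf1 to Srebf2) and 1.14 to 1.51 (Fasn to Acly). Differences relative to the adipocyte markers were -0.72 to -0.45 (Fasn), 0.00039 to 0.66 (Acacb), -1.98 to -1.79 (Acly), -2.87 to -1.95 (Scd2), -0.91 to -0.66 (Mlxipl), -0.99 to -0.84 (Srebf1) and -1.48 to -1.18 (Me1). Under quantile normalization they were -1.65 for Acly, -2.24 for Scd2, -0.48 for Mlxipl, -0.69 for Srebf1, 0.80 for Thrsp and -1.11 for Me1. Per kilobase of the longest transcript, KO means were 1569 for Acaca, 2047 for Acly, 415.2 for Mlxipl, 3120 for Srebf1, 14605 for Thrsp and 3572 for Me1, since these transcripts are shorter than the summed exons. Depth set no limit for the 10 genes, whose lowest normalized count was 457.7.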
